A study of Mus musculus with 11 samples.

Results

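Cytosolic ribosomal protein genes were taken as the mouse genes whose symbol is Rpl, Rplp or Rps followed by a number and at most a short paralog suffix. Of the 53465 genes in the count tables, 88 met this rule, 53 of the large subunit and 35 of the small subunit. The 295 symbols ending in -ps, which mark pseudogenes, and the Rps6k kinases were left out. The rule used only names and no measured value. It does not pick ribosomal proteins alone, because GENCODE annotates 82 of the 88 genes as protein-coding and 6 as pseudogenes (Rps4l, Rpl32l, Rps3a2, Rps3a3, Rps12l1 and Rpl6l).

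The cytosolic ribosome translates nuclear-encoded mRNA. Its small subunit reads the message and its large subunit forms the peptide bond, and each carries ribosomal RNA and a fixed set of proteins, most of them present as a single copy per particle. Most mRNAs of these proteins begin with a run of pyrimidines at the cap, the 5′ terminal oligopyrimidine (TOP) tract, through which mTOR signalling and the repressor LARP1 set their translation together. In neurons, ribosomes in dendrites and axons support local protein synthesis, which synaptic plasticity requires.

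RNA was sequenced from mPFC CRF1+ neurons, cells of the medial prefrontal cortex (mPFC) that carry the CRF1 receptor for corticotropin releasing factor. The cells were sorted by GFP fluorescence from adult male CRF1:GFP mice, in which a transgene reports the receptor gene Crhr1, and each library came from a single mouse. The 6 naïve mice received pyrazole, an inhibitor of alcohol dehydrogenase, and breathed air in the chambers. The 5 withdrawn mice received alcohol and pyrazole, inhaled ethanol vapor intermittently for 5 to 6 weeks and were then 5 to 8 days into forced abstinence. Pyrazole was thus shared by both groups.

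Library depth was 7351567 to 22244869 counts on genes, and reads outside exons took 5.77% to 48.1% of the tallied reads. Genes with any count numbered 15585 in naïve mouse 5 and 22551 to 31830 in the others. Crhr1 was read at 42.2 to 136 CPM, the count of a gene scaled to its library's size, and Slc17a7, the vesicular transporter that marks glutamatergic neurons, at 738 to 1928 CPM in the 11 mice. For withdrawn mice 3, 4 and 5 another label reads as control, so values without these 3 mice were computed as well. The submitters' design text also counts 5 controls and 6 treated mice, where the treatment labels followed here give 6 and 5, and this conflict could not be settled. Summed CPM of 10 fibroblast markers was 15.4 to 89.2 in naïve and 32.6 to 1619 in withdrawn mice, and that of 7 astrocyte markers 14.5 to 153 and 9.29 to 434. Of the latter, Gjb6 alone gave 328, 184 and 327 CPM in withdrawn mice 1, 3 and 4, and of 5 tested astrocyte markers 2 were higher and 3 lower in withdrawn mice, with a median log2 fold change of −0.13. Summed CPM of 8 neuron markers was 9320 to 12111 in naïve and 5959 to 9648 in withdrawn mice. All 8 were lower in withdrawn mice, 3 of them at an unadjusted p under 0.05 (edgeR), against 380 of 17093 genes. Of 6 glutamatergic markers 5 were lower, and of 7 GABAergic markers 6 were higher, 0 of them at that p. None of these markers was at 0 in all mice of a group, and their part in the results below was not tested. In bulk samples, fewer cells of a type and less RNA per cell cannot be told apart.

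The TOP tract was looked for in RefSeq start sites (GRCm38.p6), on the strand of the gene only, as a C followed by at least 4 bases that are each C or T, beginning at the start base or within 5 bases of it. RefSeq windows existed for 63 of the 88 genes, of which 30 (47.6%) held such a tract, against 21.2% of 27025 genes and 17 of 69 mitochondrial ribosomal protein genes (24.6%). The windows below run from 6 bases before the start to 20 bases from it, 5′ to 3′, with the tract in capitals. The first group holds genes with a tract near the start, and they are shown because the classical regulation of these mRNAs rests on it. RPS6 is the ribosomal protein phosphorylated downstream of mTOR, RPL38 is known for its part in selective translation of Hox mRNAs, RPLP2 is a stalk protein, and RPS27 and RPL22L1 belong to the paralog pairs described further on.
Rps6, chr4:86857348-86857373, minus strand: tcgggCCTCTTTTTCgtgacgcctcc
Rpl38, chr11:114668574-114668599, plus strand: ctcgttCTTTCCCCgttctcttcggt
Rplp2, chr7:141447645-141447670, plus strand: gtCTTCCTTTCgccgccggacgccgc
Rps27, chr3:90213629-90213654, minus strand: ttcgCTCCTTTCCggcggtgacgacc
Rpl22l1, chr3:28805502-28805527, plus strand: aagcccgttCTCTTCCCacggctgca
For other members these letters were absent at the RefSeq start. Rplp0 and Rpl36a are shown since both recur in the comparison of the groups, and Rpl22, at the first of its 2 annotated starts, as the parent gene of Rpl22l1.
Rplp0, chr5:115559461-115559486, plus strand: tttcgaggaccgcctggttctcctat
Rpl36a, chrX:134585648-134585673, plus strand: ggcaccgcctataaacttccgttgcg
Rpl22, chr4:152324430-152324455, plus strand: tggaatgttccagctcccactgacag
A start annotated a few bases off can move a tract out of the searched positions, so absence describes the annotated window only. Set against the comparison of the groups described next, the median log2 fold change was −0.13 over 30 tested members with a tract and −0.05 over 30 without, and 6 and 10 of them were higher in withdrawn mice.

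Withdrawal was compared with the naïve state to ask whether ribosomal protein mRNA differed in these neurons. No ribosomal protein gene passed the test. After removal of genes with low counts, 82 of the 88 members were tested among 17093 genes, and 0 were called (edgeR quasi-likelihood test with Benjamini-Hochberg adjustment over all genes). A call needed an adjusted p no higher than 0.05 together with a change of more than 0.6 on the log2 scale. Of all genes tested, 0.00585% met both. At an unadjusted p under 0.05, edgeR placed 0 of the 82 members, against 7.22% of all genes. DESeq2 called 0 members, and 1.66% of the genes to which it gave an adjusted p. It placed 1 of 87 members (Rpl24) under that unadjusted p, against 2547 of 41907 genes. The smallest adjusted p of a member was 0.776 by edgeR and 0.388 by DESeq2, both for Rpl24.

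Log2 fold changes of members ran from −0.51 to 1.45 with a median of −0.12, beside a median of 0.02 over all genes tested. They were positive for 23 of the 82 members (28.0%), against 51.8% of all genes. Large subunit members had a median of −0.11 with 15 of 49 positive, and small subunit members one of −0.12 with 8 of 33 positive. The direction rested on 1 library, naïve mouse 1. Without it the median was 0.14, 70 of 81 members were positive and 5 had an unadjusted p under 0.05, all higher in withdrawn mice, where 4.61% of all genes were. Leaving out any other mouse kept the median negative, between −0.16 and −0.07.

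The intervals show which changes the data could have missed. The 95% interval of the fold change lay within 2-fold in either direction for 75 of the 82 members and within 1.5-fold for 23. The 7 with wider intervals were Rpl24, Rpl13a, Rpl23a, Rpl36a, Rps27l and the pseudogenes Rps3a2 and Rpl32l. The standard error was 0.25 at the median member and 0.44 at the median of all genes tested. The narrowest belonged to Rpl4, a large subunit protein, at 0.13, with a log2 fold change of −0.05. Groups did not overlap for 0 of the 82 members, against 0.948% of all genes.

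**Figure D1:**
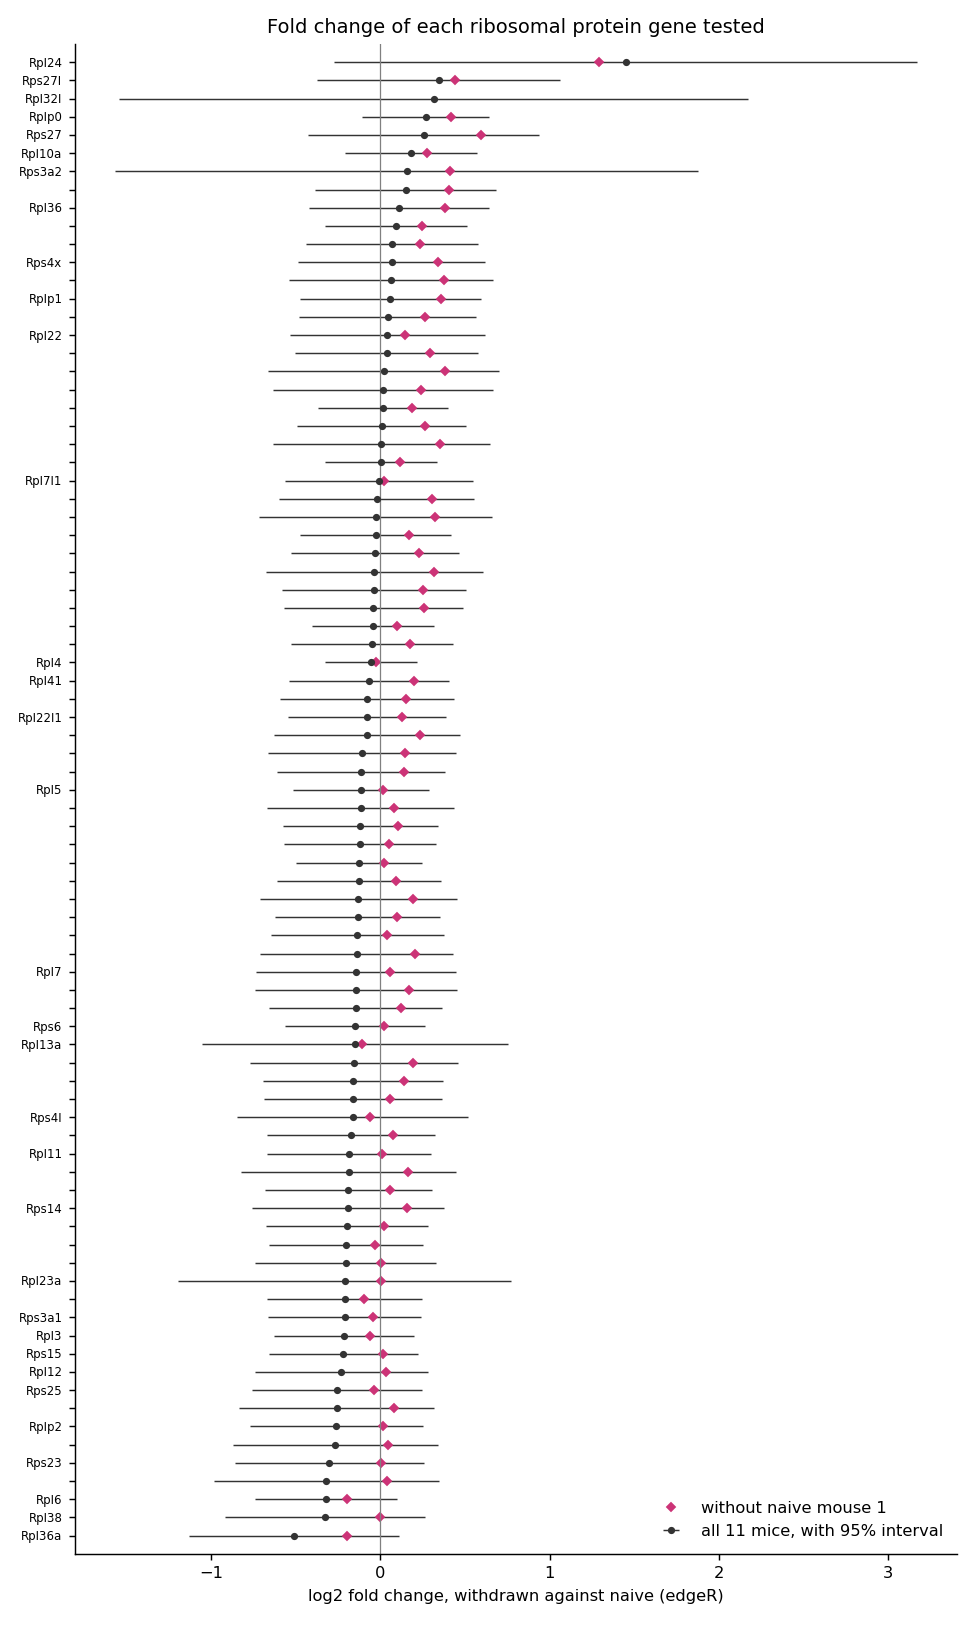
Log2 fold change of each of the 82 tested ribosomal protein genes, withdrawn against naïve (edgeR), with symbols for genes described in the text. Dots with bars give all 11 mice with the 95% interval, and diamonds the same fit without naïve mouse 1. Every interval spans 0, 59 dots lie below 0, and without naïve mouse 1 only 11 of 81 members lie below 0.

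The share of the library spent on ribosomal protein mRNA shows the same library apart. Members took 1.27% of the counts on genes in naïve mouse 1 and 0.671%, 0.667%, 0.700%, 0.586% and 0.712% in naïve mice 2 to 6. In withdrawn mice 1 to 5 the share was 0.831%, 0.672%, 0.716%, 0.814% and 0.776%. All withdrawn mice thus lay below naïve mouse 1, while the lowest of them lay above 3 of the other 5 naïve mice. The means were 0.767% ± 0.248 (SD, n = 6) and 0.762% ± 0.067 (SD, n = 5), and 0.667% ± 0.049 (SD, n = 5) for naïve mice without mouse 1. As a score over the members this share was given no test. Summed CPM of fibroblast markers was 1619, 32.6, 885, 1343 and 332 in withdrawn mice 1 to 5, and 15.4 in naïve mouse 1, the lowest of the 11 mice. The part of such cells in the share was not tested.

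**Figure D2:**
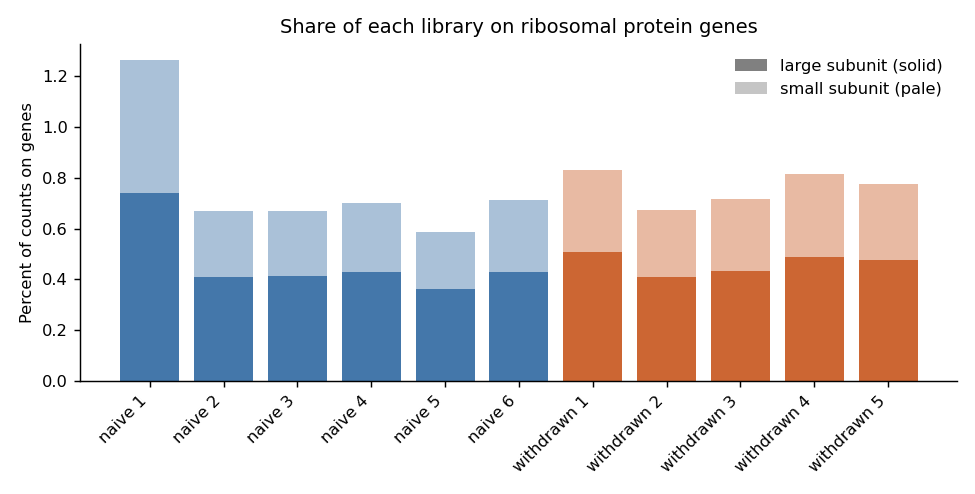
Percent of all counts on genes that fell on ribosomal protein genes in each mouse, large subunit (solid) and small subunit (pale) stacked, naïve in blue and withdrawn in orange. Naïve mouse 1 reaches 1.27%, and the other 10 mice lie between 0.586% and 0.831%.

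Nearly every member took part in the excess of naïve mouse 1. It was the highest of the 11 mice for 74 of the 82 tested members and for 12.7% of all genes tested. The exceptions were Rpl4, Rpl10a, Rpl13a, Rpl24, Rpl7l1, Rps27l, Rps4l and Rpl32l. Against the median of the other naïve mice, naïve mouse 1 was 2.02-fold at the median member, with quartiles of 1.74 and 2.37. With 0.5 CPM added to both values the median ratio was 2.01 over the 82 members and 0.988 over all genes tested. In this library 12.6% of the tallied reads were not uniquely placed, against 7.88% to 10.4% in the other 10 mice.

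The excess was larger for members with a short coding sequence. Coding length here is that of the longest coding sequence annotated for a gene. Spearman's rho between coding length and the ratio of naïve mouse 1 to the other naïve mice was −0.56 across 79 protein-coding members, given as a description because all points share the same libraries. On the CPM + 0.5 scale, the median ratio was 2.22 for 37 members with a coding length under 450 bases, 2.00 for 31 between 450 and 750, and 1.66 for 11 between 750 and 1500. Other protein-coding genes showed a like order at lower ratios, with 1.54 for 822 genes under 450 bases, 1.20 for 1723 between 450 and 750, 1.00 for 4708 between 750 and 1500, and 0.857 for 4473 between 1500 and 3000. At 3000 bases or more the ratio was 0.865 for 2113 genes, so the decline did not continue there. Members are short, with a median coding length of 456 bases against 1434 over all protein-coding genes tested. Whether gene length accounts for the excess was not tested.

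**Figure D3:**
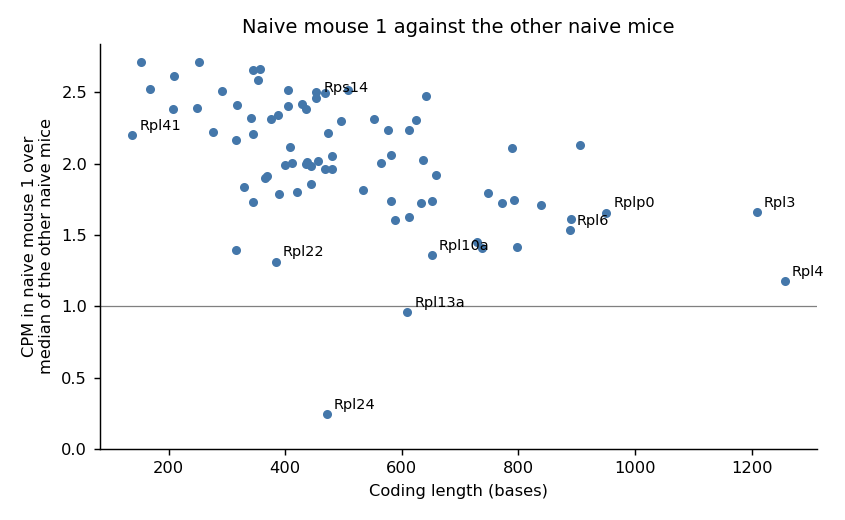
CPM in naïve mouse 1 divided by the median CPM of the other 5 naïve mice (vertical axis, grey line at 1) against coding length in bases, for the 79 tested protein-coding members. The quartiles over all tested members are 1.74 and 2.37, the longest member, Rpl4, lies at 1.17, and Rpl24 and Rpl13a lie below 1, at 0.244 and 0.957.

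Apart from naïve mouse 1, the members varied little between mice. The median SD of log2(CPM + 0.5) was 0.19 over members among the other 5 naïve mice and 0.21 among the 5 withdrawn mice. Over all protein-coding genes tested it was 0.53 and 0.50, at a lower median level (26.3 CPM in naïve mice, against 78.8 CPM for members). Naïve mouse 5 was the lowest of the 11 mice for 37 members, and for 32.8% of all genes tested. The median deviation of members from their own median over the mice was 0.94 on the log2 scale in naïve mouse 1, −0.25 in naïve mouse 5 and between −0.13 and 0.17 in the other 9 mice.

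**Figure D4:**
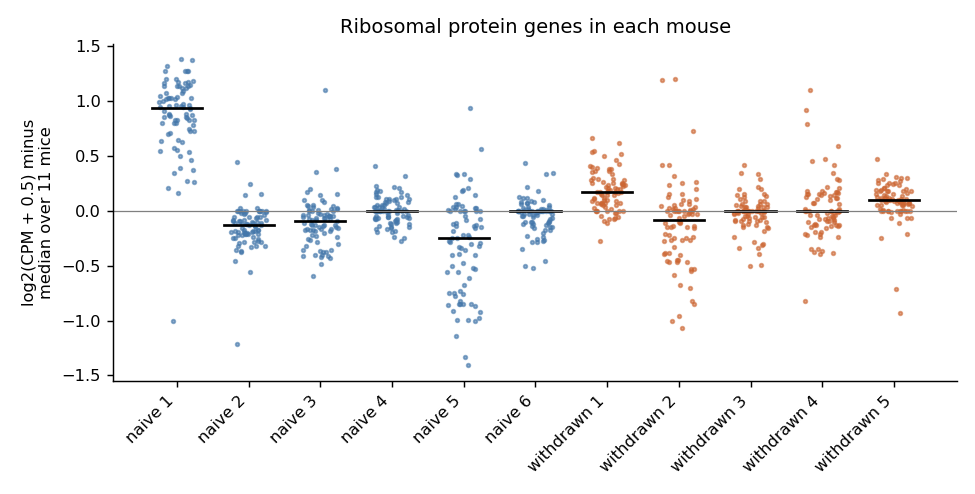
Deviation of each of the 82 tested members (points) from its own median over the 11 mice, in log2(CPM + 0.5), by mouse, with the median over members as a black line. Naïve mouse 1 stands 0.94 above, naïve mouse 5 spreads towards low values, and the withdrawn mice sit near 0.

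By summed CPM the proportion of the subunits was alike in the 2 groups, a description with no test. Summed CPM of large over small subunit members was 1.54 ± 0.07 (SD, n = 6) in naïve and 1.55 ± 0.03 (SD, n = 5) in withdrawn mice. The lowest ratio of all, 1.41, was that of naïve mouse 1, and the other 10 mice lay between 1.51 and 1.60. With the median CPM per kilobase in place of sums, the ratio was 0.968 ± 0.071 in naïve and 0.894 ± 0.056 in withdrawn mice, ranges that overlapped.

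Levels of different genes were compared per kilobase of annotated exons in naïve mice. The 5 highest tested members were Rplp1 of the stalk at 309 ± 143 CPM per kilobase (SD, n = 6), Rps15 at 236 ± 87.1, Rpl36 at 196 ± 85.2, Rpl4 at 189 ± 24.1 and Rps3a1 at 136 ± 36.8. Rplp1, Rps15 and Rpl36 each differed from the next in this order by less than 1 SD of the higher gene, while Rpl4 exceeded Rps3a1 by more than the SD of either. The median member stood at 44.9 CPM per kilobase and the median protein-coding gene tested at 5.30, and 77 of the 79 tested protein-coding members lay above the latter. The order of members was nearly the same in withdrawn mice (Spearman's rho 0.99 over 82 members). It did depend on the length used. By the principal transcript, 3 of the 5 highest stayed, and Rps14, Rplp1, Rps15, Rpl41 and Rpl4 led. By coding length 1 of the 5 stayed, and Rpl41 led with 1104 CPM per kilobase. Its longest annotated coding sequence, 138 bases, was the shortest among tested protein-coding members.

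The low end of that order holds genes whose reads cannot be placed with certainty. The 5 lowest were the protein-coding genes Rpl24, Rpl13a and Rpl23a and the pseudogenes Rps3a2 and Rpl32l, between 0.60 and 7.07 CPM per kilobase. Rpl24 shares 71.5% of its principal transcript, on the same strand, with exons of Gm28037, and Rpl13a shares 59.3% with Gm45713 and Mir5121. Gm28037 and Gm45713 had 0 counts in all 11 mice. Reads that touch exons of both genes may fall into the ambiguous tally, which held 2.07% to 4.13% of the tallied reads. For Rpl23a, 55.4% of the principal transcript lies opposite exons of Tlcd1, and without a stated strand setting the reads of the 2 genes cannot be told apart.

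Sequence shared with genes elsewhere was looked at as well. Of the 75-base windows of each principal transcript, the median protein-coding member had 35.9% that also occur in the transcript of a gene elsewhere, and 29 of the 82 had over 50%. For Rps27 it was 98.5% and for Rpl3 83.2%, while Rps3, Rpl3l and Rpl39l had none. This share did not track the level. The median was 122 CPM per kilobase of principal transcript for 29 tested members above 50% and 107 for 50 at or below it (Spearman's rho 0.10 over 79 members).

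The stalk, through which elongation factors are recruited, is built from RPLP0, RPLP1 and RPLP2 on a base with RPL12. Rplp0 was read at 217 CPM in naïve mouse 1 and 114 to 143 CPM in the other naïve mice, and at 180, 147, 197, 188 and 158 CPM in withdrawn mice 1 to 5. Without naïve mouse 1 its groups did not overlap. The log2 fold change was 0.27 (SE 0.18, adjusted p = 0.820 by edgeR) with all mice and 0.42 (SE 0.14, adjusted p = 0.547) without naïve mouse 1.

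Rplp1, Rplp2 and Rpl12 differed in sign with all mice, and all 3 had estimates above 0 without naïve mouse 1. Rplp1 was read at 108 to 137 CPM in naïve mice 2 to 6, 298 CPM in naïve mouse 1, and 211, 137, 159, 152 and 144 CPM in withdrawn mice 1 to 5. Its log2 fold change was 0.06 with all mice and 0.36 without naïve mouse 1. For Rplp2 and Rpl12 it was −0.26 and −0.23 with all mice, and 0.02 and 0.03 without naïve mouse 1. All 4 genes were highest in that mouse.

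The members with the smallest unadjusted p were, in order, Rpl24, Rpl36a, Rpl6, Rplp0, Rpl38, Rps23, Rpl3, Rps25, Rplp2 and Rps15. Rpl24, a large subunit protein, had a median of 0.779 CPM in naïve mice (0.0677 to 0.937) and 1.59, 2.80, 0.514, 2.21 and 1.49 CPM in withdrawn mice 1 to 5. Its groups overlapped in withdrawn mouse 3, and the log2 fold change was 1.45 (SE 0.80, 95% interval −0.27 to 3.17, unadjusted p = 0.0922 by edgeR). These are few reads, since 3 counts correspond to 0.135 to 0.408 CPM, and most of the transcript is shared with Gm28037 as described above.

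Rpl36a, an X-linked gene of the large subunit, was read at 92.2 CPM in naïve mouse 1 and 31.9 to 45 CPM in the other naïve mice, and at 40.6, 31.8, 24.8, 32.0 and 35.02 CPM in withdrawn mice 1 to 5. The log2 fold change was −0.51 (SE 0.29, adjusted p = 0.780 by edgeR) and −0.20 (SE 0.21) without naïve mouse 1. Rpl6 was read at 103 to 115 CPM in naïve mice 2 to 6, 172 CPM in naïve mouse 1, and 110, 61.3, 109, 87.2 and 118 CPM in withdrawn mice 1 to 5. In both genes the withdrawn mice lay within or below the naïve range. In Rpl38, Rps23, Rps25, Rplp2 and Rps15 the fitted difference with all mice, −0.33 to −0.22, shrank to between −0.04 and 0.02 without naïve mouse 1. Rpl3, which lines the peptidyl transferase centre, moved from −0.21 to −0.06.

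With naïve mouse 1 left out, 5 members had an unadjusted p under 0.05, and all were higher in withdrawn mice. Rplp0, Rpl36, Rps27 and Rplp1 were among them and were picked after these values were seen. Rpl36 was read at 47.2 to 69.3 CPM in naïve mice 2 to 6, 140 CPM in naïve mouse 1, and 98.8, 69.6, 72.9, 84.7 and 79.3 CPM in withdrawn mice 1 to 5. The lowest withdrawn mouse lay just above the highest of naïve mice 2 to 6. In this setting Rplp0 and Rpl36 were the 2 of 81 members whose withdrawn values all lay above the naïve ones, against 0.901% of all genes. None of the 5 passed the adjustment, and the adjusted p of these 4 genes was 0.547 to 0.714 (edgeR).

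Several members are known for functions beyond the core of the ribosome. Rps6 was read at 171 CPM in naïve mouse 1, 77.1 to 121 CPM in the other naïve mice and 101, 93.6, 98.4, 107 and 91.6 CPM in withdrawn mice 1 to 5. Rpl5 and Rpl11 encode the proteins that bind 5S RNA and, when free, inhibit MDM2, and their log2 fold changes were −0.11 (SE 0.19) and −0.18 (SE 0.22), or 0.01 for each without naïve mouse 1. Rpl10a, which is not present on every ribosome, had 41.7 to 65.7 CPM in naïve and 50.04 to 67.7 CPM in withdrawn mice, a difference of 0.18 on the log2 scale (SE 0.18). Rps25, needed for initiation at some viral internal ribosome entry sites, had 74.4 to 180 CPM in naïve and 80.8 to 95.4 CPM in withdrawn mice. Rpl41 was read at 115 to 280 CPM and 135 to 153 CPM. In all of these the ranges of the groups overlapped.

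Paralogs can replace a ribosomal protein in some tissues, and 7 pairs were looked at. Of these, 4 had both genes tested, and the log2 ratio of paralog to parent, in CPM + 0.5, was taken within each mouse. The ratio is not scaled for gene length, so it compares mice rather than the levels of paralog and parent. None differed between the groups by a two-sided exact permutation test over 462 splits of the mice, with p values of 0.266 to 0.669 that were all 0.669 after Benjamini-Hochberg adjustment over the 4 pairs (smallest p possible 0.00216). The differences, withdrawn minus naïve, were 0.20 for Rpl7l1 to Rpl7, −0.15 for Rpl22l1 to Rpl22, −0.43 for Rps4l to Rps4x and −0.10 for Rps27l to Rps27.

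In CPM, which is not scaled for length, Rpl22l1 stood close to its parent. Per kilobase of annotated exons its naïve mean was higher, at 29.9 CPM against 16.9 for Rpl22. Per kilobase of the principal transcript these were 108 and 23.9. The mean log2 ratio was 0.31 ± 0.53 (SD, n = 6) in naïve and 0.16 ± 0.27 (SD, n = 5) in withdrawn mice, with single mice between −0.15 and 1.24. The highest ratio was that of naïve mouse 5, where Rpl22 was read at 20.05 CPM, against 37.2 to 65.3 CPM in the other 10 mice. Rps27l, a target of p53, lay below Rps27 in all 11 mice, with means of −1.53 ± 0.39 and −1.64 ± 0.53, the lowest naïve value being −2.30 in naïve mouse 1. Almost all windows of Rps27 also occur elsewhere, so the level of the parent is uncertain.

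Rpl7l1, a nucleolar relative of Rpl7, exceeded its parent in 2 mice only. Naïve mouse 5 had 146 CPM of Rpl7l1 and 73.3 CPM of Rpl7, and withdrawn mouse 2 had 101 and 69.6 CPM. In the other 9 mice the log2 ratio lay between −1.49 and −0.95. Naïve mouse 5 was also the library with the fewest genes detected. The part of this in its ratios, here and for Rpl22l1 to Rpl22, was not tested. Rps4l is an annotated transcribed pseudogene of the X-linked Rps4x and was read at 28.8 to 54.5 CPM in naïve and 48.3, 61.9, 29.9, 20.8 and 19.2 CPM in withdrawn mice 1 to 5, of which the 3 with the conflicting label are the 3 lowest. Without those 3 mice the difference in ratio was 0.21 in place of −0.43.

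**Figure D5:**
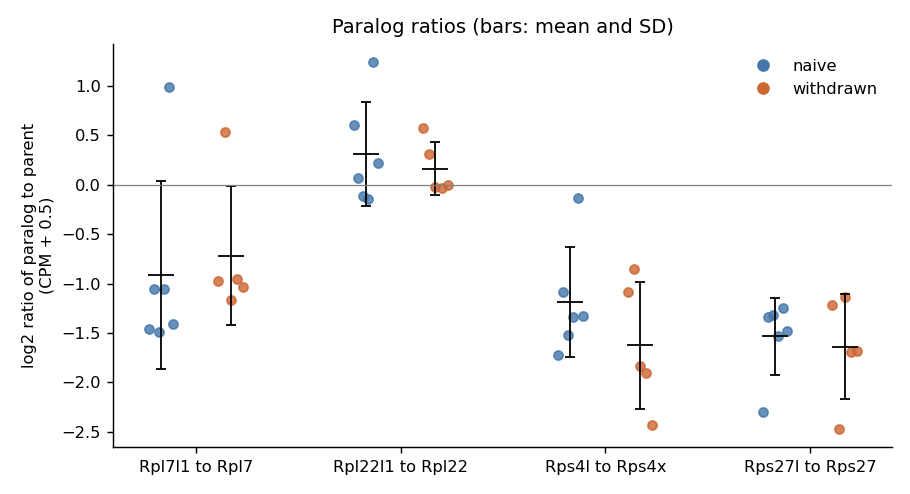
Log2 ratio of the paralog to its parent gene, in CPM + 0.5, for the 4 pairs with both genes tested. Points are mice (naïve blue, withdrawn orange) and black bars give the mean and SD; the groups overlap in all 4 pairs, and naïve mouse 5 and withdrawn mouse 2 stand above 0 for Rpl7l1 to Rpl7.

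The other 3 pairs hold a paralog below the filter on low counts, as paralogs known from muscle or testis are in brain. Rpl3l, a paralog of heart and skeletal muscle, had 0 to 11 counts per mouse. Rpl10l and Rpl39l, paralogs of the male germ line, had 0 to 3 and 0 to 2 counts. The pseudogenes Rpl6l and Rps3a3 had 0 to 9 counts each, and Rps12l1 had 0 in all mice. For Rps12l1 the limit that a count of 0 allows was 0.135 to 0.408 CPM per library, counting error only.

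Many ribosomal protein genes carry small nucleolar RNAs in their introns. Of the 88 members, 29 (33.0%) contain an annotated small nucleolar RNA gene on their strand, against 278 of 21942 protein-coding genes (1.27%). Members lay on 19 chromosomes, with 15 on chromosome 7.

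Rpsa, Fau, Rack1 and Rpl36al are ribosomal subunit genes that the symbol rule misses. All 4 were tested, 0 were called, 1 (Rpsa) was higher in withdrawn mice, and all 4 were highest in naïve mouse 1. Rpsa, a small subunit protein, was read at 73.3 to 187 CPM in naïve and 136, 135, 141, 123 and 138 CPM in withdrawn mice 1 to 5. Its log2 fold change was 0.21 (SE 0.20, adjusted p = 0.896 by edgeR). Fau, Rack1 and Rpl36al had values between −0.37 and −0.21.

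Other genes of translation were compared as lists, and 0 genes of any of them were called. A gene named from a list is the one with its smallest edgeR p. Among 18 elongation factors and other TOP mRNAs, 2 were higher and 3 lower at an unadjusted p under 0.05, and the median log2 fold change was −0.08. Without naïve mouse 1 the counts were 1 higher and 0 lower, and the median was 0.06. Over all genes, 7.22% had such a p with all mice. Eif4b, an initiation factor with a TOP mRNA, was read at 61.1 to 100 CPM in naïve and 124, 142, 113, 117 and 126 CPM in withdrawn mice 1 to 5. Its groups did not overlap, as was so for 0.948% of all genes tested. The log2 fold change was 0.53 (SE 0.16, adjusted p = 0.327 by edgeR and 0.0471 by DESeq2, which is below the fold needed for a call). Of 24 initiation factors 1, Eif4g2, was higher at an unadjusted p under 0.05, with 0.35 (SE 0.15, adjusted p = 0.648). Of 20 genes of mTOR signalling and TOP mRNA control 0 had an unadjusted p under 0.05, and the median was −0.01. Rheb, the activator of mTORC1, had the smallest p, with −0.40 (SE 0.20, adjusted p = 0.724). Of 10 ribosome quality control genes 1, Gtpbp1, was higher at that p, with 0.62 (SE 0.29, adjusted p = 0.686 by edgeR), and without naïve mouse 1 the counts were 0 higher and 1 lower.

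Genes that make ribosomes and genes of the mitochondrial ribosome had negative medians. Over all genes tested, 51.8% were higher in withdrawn mice, and 380 of 17093 were lower at an unadjusted p under 0.05 (edgeR). Without naïve mouse 1, 304 of 16863 genes were lower at that p. Of 36 ribosome biogenesis genes 10 were higher in withdrawn mice, 3 were lower at an unadjusted p under 0.05, and the median log2 fold change was −0.12. Without naïve mouse 1 the median was again −0.12, and 1 gene was lower at that p. Nhp2, a protein of the small nucleolar RNA particles that guide pseudouridylation, was read at 77.0 to 129 CPM in naïve and 59.5, 43.8, 65.4, 49.8 and 76.3 CPM in withdrawn mice 1 to 5. It was named as the gene with the smallest p of its list. Its groups did not overlap, by 77.0 against 76.3 CPM, as was so for 0.948% of all genes tested. The log2 fold change was −0.61 (SE 0.20, adjusted p = 0.383 by edgeR). Of 77 tested mitochondrial ribosomal protein genes 9 were higher, 9 were lower at an unadjusted p under 0.05, and the median was −0.29. Without naïve mouse 1, 18 were higher, 3 were lower at that p, and the median was −0.18. Naïve mouse 1 was the highest for 43 of the 77. In both lists the median kept its sign without naïve mouse 1, whereas that of the cytosolic members changed. The difference between the lists was not tested.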

How the data were processed

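The deposited values are raw counts of reads per Ensembl gene, made by the authors from single-mouse libraries (SMARTseq HT, 160 pg of RNA) with cutadapt, STAR (GRCm38) and HTSeq. The strand setting is not given in the sources used here. Tally lines that name no gene stayed out of library sizes. Mice were grouped by the treatment label, and replicate numbers only name mice. Members and lists were chosen with earlier results of these data known. Genes passing edgeR's filterByExpr (minimum count 10, total 15) were scaled by TMM and tested by the quasi-likelihood test (edgeR 4.0.16, R 4.3.3), and CPM are TMM-scaled. DESeq2 1.42.0 was an alternative. p-values measure the spread between these mice. Named members were the 10 with the smallest p, those called or not overlapping, the 5 highest and 5 lowest per kilobase, those under the filter, paralog pairs, stalk genes and a few of known special function. Coordinates, lengths and overlaps came from GENCODE M21, start sites from RefSeq. Identical libraries were looked for, and the smallest chi-square per degree of freedom over 55 pairs was 25.6. The fit was tested on simulated counts. Alternatives were other scalings and filters, a replicate block, and leaving out mice. Values of a few single genes are not reported here.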

Additional observations from a re-analysis of the deposited data

Results flagged for a closer look

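The share of counts on members, the ratio of the subunits and the 4 paralog ratios were examined in each group, 12 sets of values in all, and chance alone places a mouse this far out in about 1 of 20 sets. In 4 of them a mouse lay far from the others of its group. Naïve mouse 1 stood out with a ribosomal protein share of 1.27%. Naïve mouse 5 and withdrawn mouse 2 stood out with log2 ratios of Rpl7l1 to Rpl7 of 0.99 and 0.53, and naïve mouse 1 with a log2 ratio of Rps27l to Rps27 of −2.30. By the same measure taken gene by gene, naïve mouse 1 lay far above the other naïve mice for 40 of the 82 tested members. Naïve mouse 5 lay far below for 1, withdrawn mouse 2 for 5, and withdrawn mice 3 and 4 for 1 each. The share over all genes was not computed and members of a library are not independent, so these counts have no background. Causes were not tested.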

How the results depend on the processing

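No member was called under any alternative run (other scalings, filters, DESeq2, adjusted p alone, the replicate block, without the 3 mice of conflicting label, each mouse left out). The count of members with an unadjusted p under 0.05 was 0, with DESeq2 1, and 0 to 5 over single mice left out; the highest came without naïve mouse 1. Members higher in withdrawn mice numbered 23, and 12 to 70 over single mice left out, 12 without withdrawn mouse 1, 12 without naïve mouse 2, 14 without naïve mouse 5 and 70 without naïve mouse 1. The median log2 fold change ran from −0.16 to 0.14 over these and was −0.05 with the replicate block. All genes called numbered 1, but 362 with DESeq2, 137 with no filter, 30 with at least 10 counts in every mouse, 0 with the replicate block, 0 without the 3 mice and 0 to 193 over single mice left out, the highest without withdrawn mouse 2. Same-numbered mice are different animals, and their deviations correlated at −0.17 to 0.17. With 1 of 5 mice correlating best with its own number, the numbers were not taken to pair the mice.

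The ratio of the subunits differed by 0.0039 between groups with sums and by −0.074 with medians per kilobase. The share of counts differed by −0.0052 percentage points, and by −0.041 to 0.094 over single mice left out. Of the 5 highest members per kilobase, 1 stayed by coding length and 3 by the principal transcript, an alternative added after seeing the data. Several fold changes changed sign, including those of Rps23, Rplp2 and Rps15, which were among the 10 members with the smallest unadjusted p. Over single mice left out they ran from −0.41 to 0.0028 for Rps23, −0.35 to 0.015 for Rplp2, −0.30 to 0.016 for Rps15, −0.077 to 0.36 for Rplp1, −0.23 to 0.022 for Rps6, −0.11 to 0.15 for Rpl22, −0.17 to 0.13 for Rpl22l1, −0.13 to 0.26 for Rpl7l1, −0.13 to 0.20 for Rpl41, −0.19 to 0.012 for Rpl5 and −0.27 to 0.0098 for Rpl11. Without the 3 mice, Rpl22 was at −0.31, Rps4l at 0.39 and Rpl7l1 at 0.090. Rpl7l1 was at 0.019 with DESeq2 size factors, 0.017 with DESeq2 and 0.044 with at least 10 counts in every mouse. Paralog ratios ran over single mice left out from −0.12 to 0.58 for Rpl7l1, −0.25 to 0.038 for Rpl22l1 and −0.26 to 0.10 for Rps27l, and without the 3 mice were 0.13 for Rpl22l1 and 0.21 for Rps4l. The cause was not tested. Few counts limit what low members such as Rpl24 can show. Every library was made from 160 pg of RNA, and the part of this input in the low counts was not tested.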

Other observations

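The 295 ribosomal protein symbols ending in -ps, which mark pseudogenes, took 0.0033% to 0.0134% of the counts on genes in naïve mice and 0.0052% to 0.0261% in withdrawn mice. Pseudogenes under other symbols are not in this share. The highest share was that of withdrawn mouse 4, which also had the most reads outside exons (48.1%), and the lowest that of naïve mouse 5, which had the fewest (5.77%). Naïve mouse 1, where the genes themselves stood highest, lay at 0.0114%.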
